A study of Mus musculus with 8 samples.

Results

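The unfolded protein and Atf4 response genes examined here are Chac1, Ddit3, Trib3, Atf4, Asns, Hspa5, Xbp1, Herpud1, Sesn2 and Ddit4 (10 genes). All probes carrying one of these symbols in the platform annotation were taken, which gave 16 of the 46632 probes on the array. The tested cells were primary mouse embryonic palate (MEP) cells from palatal shelves of E13.5 embryos of a CBA;C57BL6 N2 background, at passage 1 in medium with serum, induced with pre-clustered ephrin-B1-Fc at 2 ug/ml for 60 min (4 arrays). They were set against MEP cells of the same origin and passage without induction (4 arrays), which the labels call a control induction without saying whether the clustering reagent alone was added. Ephrin-B1 is a membrane-bound ligand of Eph receptor tyrosine kinases, and a clustered soluble form activates those receptors. Replicate 1 of both groups lay on slide 1, replicate 2 on slide 2 and replicates 3 and 4 on slide 3. No label states that replicates came from separate cultures, and p-values measure the spread between these arrays, and their number limits the precision.

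Cells read trouble in protein folding inside the endoplasmic reticulum (ER) through the unfolded protein response, in which the sensors Atf6 and Ern1 (IRE1) raise ER chaperones and degradation factors. Another sensor, the kinase Eif2ak3 (PERK), and related kinases that sense amino acid shortage, heme and viral RNA slow translation and let the factor Atf4 be made, and Atf4 then switches on genes for amino acid supply and stress signaling. Atf4 is controlled largely at translation and Xbp1 by splicing of its mRNA, so an mRNA level is a partial view of either. Of the 10 genes, Chac1, Ddit3, Trib3, Asns, Sesn2 and Ddit4 are known targets of Atf4. Hspa5, Xbp1 and Herpud1 are known as ER genes of the Atf6 and Xbp1 arms, and Herpud1 also answers to Atf4.

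The promoters printed are those in which a known element of either arm was found, since the comparison made here is between the Atf4 arm and the ER arm. The 250 bases before the start of each gene were read from RefSeq (GRCm38.p6), and all 10 genes had an entry. On both strands they were searched for the C/EBP-ATF response element bound by Atf4 (TGATGNAA), the ER stress elements ERSE and ERSE-II and the core of the unfolded protein response element (TGACGTGG). Capitals mark the matches, which do not overlap one another, and each sequence runs 5′ to 3′ towards the gene.
Chac1, chr2:119350992-119351241, plus strand: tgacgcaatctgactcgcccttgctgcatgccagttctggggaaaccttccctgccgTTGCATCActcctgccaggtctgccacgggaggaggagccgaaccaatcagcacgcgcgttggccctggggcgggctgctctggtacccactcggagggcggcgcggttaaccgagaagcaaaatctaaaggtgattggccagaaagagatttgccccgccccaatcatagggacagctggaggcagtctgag
Asns, chr6:7693210-7693459, minus strand: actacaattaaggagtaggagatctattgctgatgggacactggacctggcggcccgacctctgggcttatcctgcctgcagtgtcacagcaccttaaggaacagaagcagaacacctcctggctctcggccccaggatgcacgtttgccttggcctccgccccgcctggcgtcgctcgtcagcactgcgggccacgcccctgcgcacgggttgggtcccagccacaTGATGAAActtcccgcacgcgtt
Herpud1, chr8:94386179-94386428, plus strand: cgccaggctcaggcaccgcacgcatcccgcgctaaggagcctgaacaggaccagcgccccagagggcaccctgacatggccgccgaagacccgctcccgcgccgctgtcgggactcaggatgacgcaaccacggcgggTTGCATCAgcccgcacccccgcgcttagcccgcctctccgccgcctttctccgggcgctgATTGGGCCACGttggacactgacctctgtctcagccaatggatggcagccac
Hspa5, chr2:34771840-34772089, plus strand: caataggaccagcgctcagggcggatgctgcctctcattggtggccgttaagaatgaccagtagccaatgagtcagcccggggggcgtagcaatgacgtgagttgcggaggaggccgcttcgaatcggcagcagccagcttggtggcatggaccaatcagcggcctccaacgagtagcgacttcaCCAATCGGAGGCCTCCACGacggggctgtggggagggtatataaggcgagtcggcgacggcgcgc

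The C/EBP-ATF element stood 193 to 186 bases before the Chac1 start, read on the opposite strand (TTGCATCA), and 23 to 16 bases before the Asns start (TGATGAAA). Herpud1 held both kinds of element, TTGCATCA at 112 to 105 bases and the ERSE-II ATTGGGCCACG at 52 to 42 bases before its start. Hspa5 held an ERSE, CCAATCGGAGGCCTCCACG, at 65 to 47 bases before its start. Of all 32851 promoters in the table, 3.45% held the C/EBP-ATF element, 0.113% the ERSE, 0.0304% the ERSE-II and 0.563% the core of the unfolded protein response element, which none of the 10 held. The other 6 genes (Ddit3, Trib3, Atf4, Xbp1, Sesn2 and Ddit4) had no match to these letters in this window.

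Between 15303 and 17362 probes were above background on each array (32.8% to 37.2%), and 16514 probes were above it on at least 4 of the 8 arrays and were tested. The 8 palatal mesenchyme markers were all above background on all 8 arrays, and the mean of their 14 tested probes was 9.56 to 9.60 on induced and 9.48 to 9.55 on uninduced arrays (normalized log2 intensity). Of 7 macrophage markers 5 were tested, with a mean of 5.75 to 6.38 on induced and 5.68 to 6.30 on uninduced arrays. Both of these means were higher on the induced array of every pair, and their part in the differences below was not tested. Single probes went both ways, with a higher group mean at 9 of the 14 mesenchyme and 3 of the 5 macrophage probes (51.2% of all tested probes). Of the 5 tested macrophage markers, 2 were above background on all 8 arrays. Of 6 epithelial markers 3 were tested, with a mean of 6.48 to 7.43 on induced and 6.67 to 7.03 on uninduced arrays. Endothelial markers numbered 2 tested of 5, muscle markers 1 of 4, glial markers 1 of 3 and erythroid markers 0 of 4. A probe under the marker's name existed for 5 of 7 macrophage, 1 of 3 glial and 2 of 4 erythroid markers. Those without one could not be tested. A lower share of expressing cells and less RNA per cell cannot be told apart in these bulk samples.

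Of the 16 member probes, 14 from 9 genes were tested. The 2 left out were both probes of Sesn2, whose product restrains mTORC1 when leucine is scarce. One (ILMN_1219984) had raw signals of 75.6, 89.5, 82.5 and 67.6 on induced arrays 1 to 4, against 90.3, 63.2, 79.1 and 75.0 on uninduced arrays, and was above background on induced replicate 2 alone. The other (ILMN_1229465) ranged from 71.0 to 87.7 and was above background on none of the 8 arrays. Sesn2 was thus not well above background in either group, and no difference is given for it.

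For the other 9 genes, the Atf4 targets had small positive differences, the ER genes lay around 0, and no member passed the test over all probes. Among Atf4 target probes, 8 of 8 tested (5 genes) had a higher mean in induced cells, against 51.2% of all tested probes. Of those 8, 6 were higher in all 4 pairs, a pair being the induced and the uninduced array that share a replicate number, against 7.87% of all probes (4 of 8 with median scaling, and 4 of 5 genes by the brightest probe of each). Among the 3 ER probes the mean was higher for 1 and none was higher in 4 of 4 pairs or lower in 4 of 4 pairs (7.49% of all). The median log2 difference, induced minus uninduced, was 0.19 over the 8 Atf4 target probes and -0.03 over the 3 ER probes, beside 0.00279 over all 16514. Pair by pair the Atf4 target median was 0.14, 0.21, 0.20 and 0.12 in pairs 1 to 4, whereas the ER median lay between -0.01 and 0.06. With limma and no block, 3 of all probes were called (0.0182%) and 0 of 14 member probes, with 0 of the 14 under an unadjusted p of 0.05 (1.11% of all). With the replicate number as a block, 54 of all probes were called (0.327%, of which 0.0424% higher and 0.285% lower) and again 0 of 14, while 7 of 14 had an unadjusted p under 0.05 and a higher mean (3.52% of all) and 0 a lower one (4.2%). All 7 were probes of Atf4 targets, and 3 of the 7 were of Trib3 alone. With the slide as a block 14 probes were called (0.0848%), 0 of them members, and 3 of 14 had an unadjusted p under 0.05 with a higher mean (1.93% of all). No probe of the 14 had every induced array above every uninduced one (0.46% of all) or the reverse (0.545%). These counts describe a list chosen with earlier results of the same arrays in view and carry no test of the list.

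**Figure D1:**
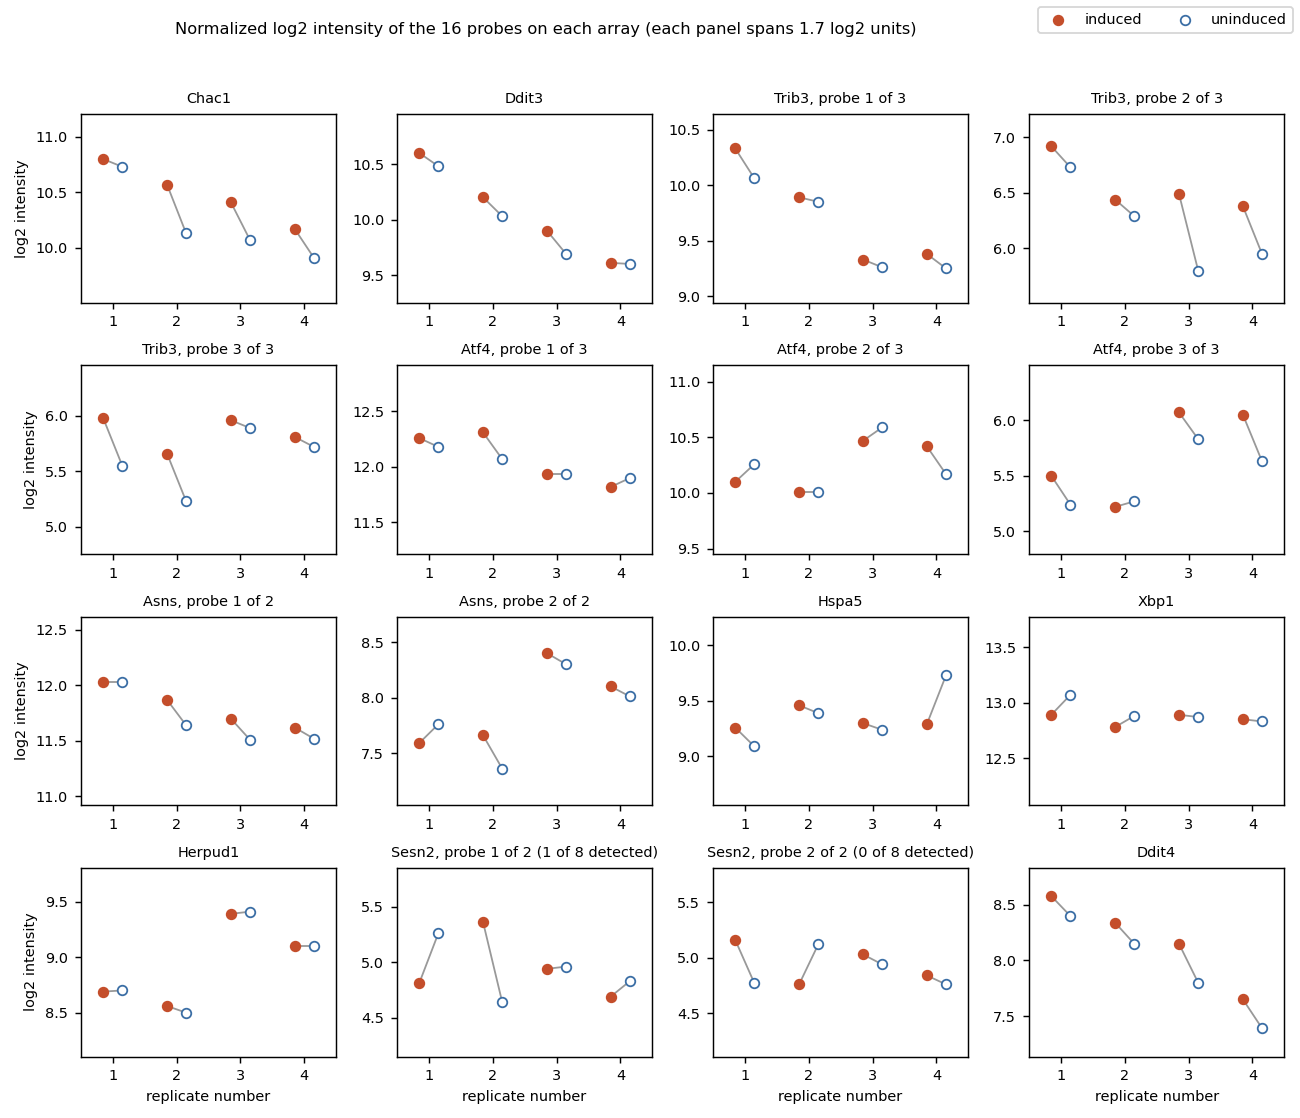
Normalized log2 intensity (vertical axis, the same span in every panel) of the 16 probes by replicate number (horizontal axis), with filled points for induced arrays, open points for uninduced arrays and a line joining each pair. Chac1, Ddit3, Ddit4 and all 3 Trib3 probes have the induced point above the uninduced one in 4 of 4 pairs (7.87% of all tested probes). The range over replicate numbers is wider than the mean difference between groups in each of the 14 tested probes, as in 97.0% of all.

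Among the tested members, Chac1 (Entrez 69065), whose product degrades glutathione, came nearest to the threshold. Its normalized log2 intensity was 10.80, 10.57, 10.41 and 10.17 on induced arrays 1 to 4, against 10.73, 10.13, 10.07 and 9.91 on uninduced arrays. The groups overlapped, since uninduced replicate 1 lay above 3 of the 4 induced arrays, yet each induced array was above its own partner. The means were 10.49 ± 0.27 in induced and 10.21 ± 0.36 in uninduced cells (SD, n = 4 each), a log2 difference of 0.28 or 1.21-fold (SE 0.179, limma adjusted p = 1). Within pairs the difference was 0.08, 0.44, 0.33 and 0.26, and with the replicate block the 95% interval was 0.15 to 0.41 (SE 0.0609, unadjusted p = 0.000425, adjusted p = 0.106). Pair 1 had the smallest difference, and without replicate 1 the blocked fit gave 0.34 with an adjusted p of 0.0704. Over all alternatives the difference stayed between 0.17 and 0.45 and its adjusted p between 0.0704 and 1.

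Ddit4 (Entrez 74747), also called REDD1, restrains mTORC1 under stress. It had 8.58, 8.34, 8.15 and 7.65 on induced arrays, against 8.40, 8.15, 7.80 and 7.39 on uninduced arrays. Every induced array exceeded its partner by 0.17, 0.18, 0.35 and 0.26, although the array levels themselves overlapped widely. The log2 difference was 0.24 or 1.18-fold (SE 0.238 without a block, adjusted p = 1), and the replicate block gave a 95% interval of 0.09 to 0.40 with an unadjusted p of 0.0051 and an adjusted p of 0.409. Without a block the difference was 0.06 without uninduced replicate 4, 0.11 without induced replicate 1 and 0.42 without induced replicate 4, and with the replicate block it was 0.20 to 0.26 without 1 replicate number.

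Ddit3 (Entrez 13198) encodes CHOP, a transcription factor linked to cell death under prolonged ER stress. Its levels were 10.60, 10.20, 9.90 and 9.61 on induced arrays, against 10.48, 10.03, 9.69 and 9.60 on uninduced arrays. The pair differences of 0.11, 0.16, 0.22 and 0.01 were all positive and all smaller than the SD of either group (0.42 and 0.40). The difference was 0.13 or 1.09-fold, with a 95% interval of 0.01 to 0.24 under the replicate block (unadjusted p = 0.0397, adjusted p = 0.634). Without induced replicate 1, and without a block, it was -0.05.

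Trib3 (Entrez 228775), a pseudokinase that binds Atf4, CHOP and Akt, had 3 tested probes. The brightest (ILMN_1225528) had 10.33, 9.89, 9.33 and 9.38 on induced arrays, against 10.06, 9.85, 9.26 and 9.25 on uninduced arrays, a difference of 0.13 (replicate block adjusted p = 0.641) that became -0.07 without induced replicate 1 and without a block. The second (ILMN_1244279) had 6.92, 6.44, 6.49 and 6.38, against 6.73, 6.29, 5.80 and 5.95, a difference of 0.36 or 1.28-fold (SE 0.209 without a block, adjusted p = 1; replicate block adjusted p = 0.446). Its pair differences were larger on slide 3 (0.68 and 0.42) than on slides 1 and 2 (0.18 and 0.15), whereas the dimmest probe (ILMN_1252762) had the reverse, with 0.07 and 0.09 on slide 3 and 0.43 and 0.42 on slides 1 and 2. That dimmest probe was above background on 4 induced and 3 uninduced arrays, and its difference was 0.25 (replicate block adjusted p = 0.641). The 3 probes thus shared a direction in 4 of 4 pairs and differed in size and in the pairs that carried it. Over all alternatives the second probe ranged from 0.16 to 0.59 and the dimmest from 0.09 to 0.37. The second probe was dim as well, with raw signals of 110.1 to 166.5. Its difference was 0.21 without background correction and 0.25 with an offset of 50, and that of the dimmest was 0.13 and 0.15.

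Asns (Entrez 27053), the asparagine synthetase whose promoter element is shown above, had 2 tested probes. The brighter (ILMN_2643513) had 12.03, 11.87, 11.70 and 11.62 on induced arrays, against 12.03, 11.64, 11.51 and 11.52 on uninduced arrays. It was level in pair 1 (-0.00486) and higher by 0.23, 0.19 and 0.11 in pairs 2 to 4, a mean difference of 0.13 or 1.09-fold (SE 0.0517 with the replicate block, unadjusted p = 0.0243, adjusted p = 0.592) that ranged from 0.06 to 0.25 over all alternatives. The dimmer (ILMN_2636755) was lower in pair 1 by 0.17 and higher in pairs 2 to 4 by 0.30, 0.10 and 0.09, with a mean of 0.08 (replicate block adjusted p = 0.876). Pair 1 was therefore the pair in which neither Asns probe was higher, and also the pair with the smallest Chac1 difference.

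Atf4 itself (Entrez 11911) showed no common direction over its 3 tested probes. The brightest (ILMN_2642681) had 12.26, 12.31, 11.94 and 11.82 on induced arrays, against 12.18, 12.07, 11.94 and 11.90 on uninduced arrays. It was higher in 2 of 4 pairs, with a difference of 0.06 and a 95% interval of -0.06 to 0.18 under the replicate block (adjusted p = 0.84). The second probe (ILMN_1223734) differed by -0.01 (95% interval -0.15 to 0.13) and turned to 0.01 with median scaling. The dimmest (ILMN_1232872), above background on 3 induced and 2 uninduced arrays, differed by 0.22 (95% interval -0.03 to 0.47, adjusted p = 0.714), with 0.09 to 0.39 over all alternatives. Under that fit the upper limit of a higher Atf4 mRNA level was 0.18 and 0.13 for the brighter probes and 0.47 for the dimmest.

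The ER genes were measured by 1 probe each. Hspa5 (Entrez 14828) encodes BiP, the main Hsp70 chaperone of the ER and carrier of the ERSE printed above. It had 9.26, 9.46, 9.30 and 9.29 on induced arrays, against 9.09, 9.39, 9.24 and 9.73 on uninduced arrays. Its induced arrays lay close together (SD 0.09) and its uninduced arrays did not (SD 0.27), with uninduced replicate 4 the highest of all 8. Pairs 1 to 3 gave 0.17, 0.07 and 0.06 and pair 4 gave -0.44, so the mean of -0.03 (95% interval -0.21 to 0.15 with the replicate block, adjusted p = 0.954) became 0.10 without replicate 4 (adjusted p = 0.837).

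Xbp1 (Entrez 22433), the factor that Ern1 activates by splicing, had 12.89, 12.78, 12.89 and 12.85 on induced arrays, against 13.07, 12.88, 12.87 and 12.83 on uninduced arrays. It was lower in pairs 1 and 2, by 0.18 and 0.10, and differed by 0.02 in pairs 3 and 4, with a mean difference of -0.06 (95% interval -0.17 to 0.05, adjusted p = 0.831). Splicing was not analysed here. Herpud1 (Entrez 64209), which serves ER-associated degradation and carries elements of both arms, had 8.69, 8.56, 9.39 and 9.10 on induced arrays, against 8.70, 8.50, 9.41 and 9.10 on uninduced arrays. The partners were nearly equal in every pair, and the difference was 0.01 with a 95% interval of -0.12 to 0.14 under the replicate block (adjusted p = 0.993). The difference between the Atf4 targets and the ER genes was not tested.

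**Figure D2:**
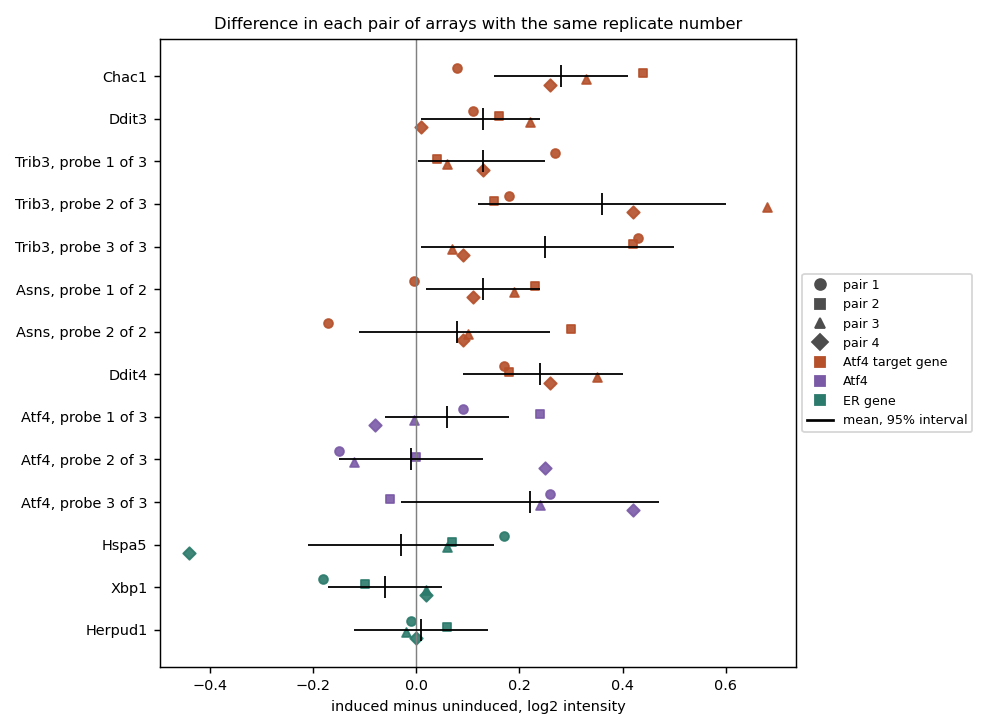
Induced minus uninduced log2 intensity (horizontal axis) of the 14 tested probes, with 1 marker for each pair of equal replicate number, a tick for the mean and a bar for the 95% interval of the fit with the replicate block. Atf4 target probes lie mostly right of 0, from 0.08 to 0.36 in the mean, and the ER genes lie between -0.06 and 0.01.

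The members, like nearly all tested probes, differed more between replicate numbers than between the groups. For all 14 tested probes the range over the 4 replicate numbers (mean of the induced and the uninduced array of a number) was wider than the absolute group difference, as it was for 97.0% of all tested probes. That range had a median of 0.70 log2 units over the members and 0.37 over all probes. An F test of the replicate number in limma, with the group in the model, called 11 of 14 member probes (78.6%), against 43.3% of all. Replicates 1 and 2 lay on slides of their own, so replicate number and slide cannot be told apart for them.

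Chac1, Ddit3, Ddit4 and the brightest probes of Trib3, Asns and Atf4 all had their highest mean in replicate 1, as did the second Trib3 probe and, outside the Atf4 arm, Xbp1. That made 8 of 14 member probes, against 24.4% of all tested probes, while the dimmest Trib3 probe was among the 5 of 14 highest in replicate 3 (24.9% of all). Ddit3 had replicate means of 10.54, 10.11, 9.80 and 9.61 for replicates 1 to 4 (F test adjusted p = 5.39e-06), and Trib3 had 10.20, 9.87, 9.29 and 9.31 at its brightest probe (adjusted p = 4.13e-06). Ddit4 had 8.49, 8.24, 7.98 and 7.52 (adjusted p = 4.92e-05) and Chac1 10.76, 10.35, 10.24 and 10.04 (adjusted p = 0.000134). At these 4 probes the range over replicates was 0.72 to 0.97. Herpud1 was arranged otherwise, with 8.70, 8.53, 9.40 and 9.10 (adjusted p = 1.41e-05), so that replicates 3 and 4 were high. Hspa5 (adjusted p = 0.103) and Xbp1 (adjusted p = 0.248) were not called by this test.

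Probes of 1 gene differed in which slides were high. The brighter Asns probe had 12.03, 11.76, 11.61 and 11.57 for replicates 1 to 4, while the dimmer one had 7.67, 7.51, 8.35 and 8.05. The brightest Atf4 probe had 12.22, 12.19, 11.94 and 11.86, while the second had 10.18, 10.01, 10.53 and 10.30 and the dimmest 5.37, 5.24, 5.95 and 5.84. In both genes the brightest probe was higher on slides 1 and 2 and the other probes were higher on slide 3, with an adjusted p between 0.000388 and 0.00689 for each of these 5 probes. Within slide 3, replicate 3 was above replicate 4 at all 5, and replicate 1 was above replicate 2 at all 5. The macrophage marker mean was also arranged by replicate, with 5.75, 6.29, 6.38 and 5.96 on induced and 5.68, 6.27, 6.30 and 5.86 on uninduced arrays, which is lowest in replicate 1. The tested muscle marker (1 gene, 2 probes) varied more by replicate, with a mean of 8.51, 8.17, 9.47 and 7.6 on induced arrays. On uninduced arrays it was 8.54, 8.1, 9.31 and 7.69, so that replicate 3 was highest and replicate 4 lowest in both groups. The part of either marker mean in these arrangements was not tested.

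**Figure D3:**
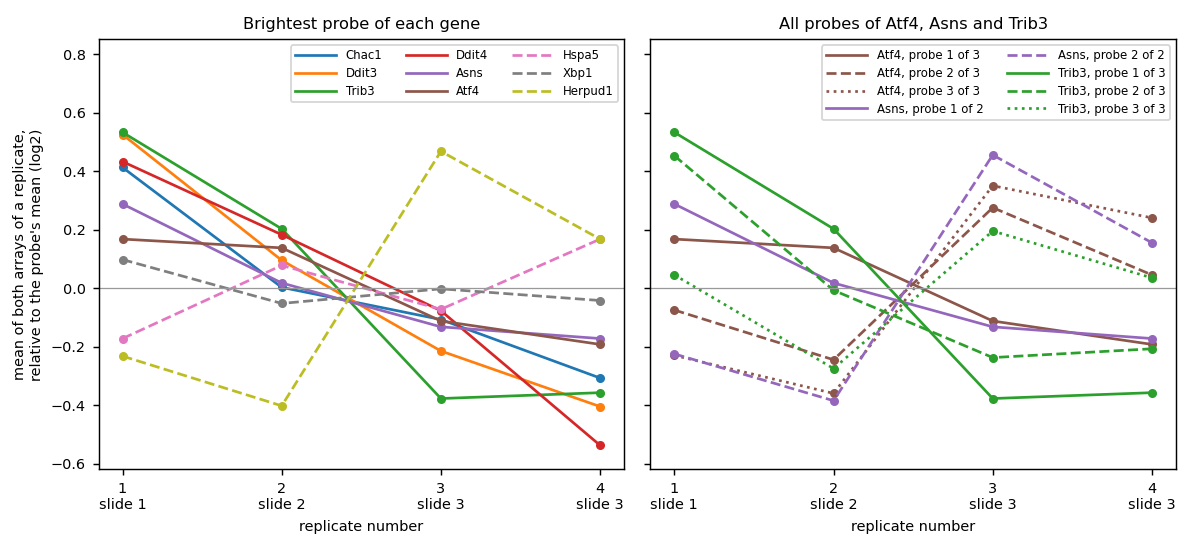
Mean of the induced and uninduced array of each replicate number, relative to the mean of the probe (vertical axis, log2), for the brightest probe of 9 genes (left) and all tested probes of Atf4, Asns and Trib3 (right), with the slide of each replicate below it. Lines only link the points of a probe. Ddit3, Trib3, Ddit4 and Chac1 are highest in replicate 1, Herpud1 is highest in replicate 3, and the dimmer Asns and Atf4 probes are higher on slide 3, where the brightest ones are lower.

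Wider lists of the same pathways had medians near that of all probes. The Atf4 target lists held 48 genes, of which 39 were tested with 51 probes, and their median difference was 0.03. The list of ER chaperones and folding enzymes held 23 genes, of which 18 were tested with 19 probes, and its median was 0.01. Without the 10 genes, the other 43 Atf4 target probes had a median of 0.02, and 3 of them (6.98%) were higher in 4 of 4 pairs, against 7.87% of all probes. The other 18 ER chaperone probes had a median of 0.01, with 2 higher in all pairs (11.1%). Among the other 43 probes that share was thus near the background.

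Within the Atf4 lists, the 20 probes for signaling and transcription genes had a median of 0.11, with 7 higher and 2 lower in all pairs (7.87% and 7.49% of all). The members made up 6 of the 7, and the other 14 probes had a median of 0.04. Of these 14, 1 was higher in all pairs, a probe of Vldlr (0.284, the other Vldlr probe 0.101). Lower in all pairs were 2, among them a probe of Eif4ebp1 (-0.243, the other Eif4ebp1 probe 0.028). Vldlr and Eif4ebp1 were named after their values were seen. Of the 20, limma with the replicate block called 1, which was lower. Before adjustment 8 higher probes and 2 lower ones had a p under 0.05 in that fit (3.52% and 4.2% of all), and 6 of the 8 were the members. That probe was Atf3, a stress-induced relative of Atf4, with 5.32 ± 0.34 in induced and 5.97 ± 0.39 in uninduced cells (SD, n = 4 each, log2 difference -0.65, lower in 4 of 4 pairs, adjusted p = 0.0206 with the replicate block). It was above background on 2 induced and 4 uninduced arrays, and without a block its adjusted p was 1. Atf3 is also an immediate early gene, and it lay opposite in sign to Chac1, Ddit4, Ddit3 and Trib3. The 17 probes for amino acid supply had a median of 0.02, and limma called 0 (2 higher at an unadjusted p under 0.05 with the replicate block, which the counts in the next lists also use). Slc38a2, a carrier of small neutral amino acids, was higher in 4 of 4 pairs by 0.17 (replicate block adjusted p = 0.587), and Slc1a4 differed by 0.09. Shmt2 differed by 0.16 at its dimmer probe and by 0.02 at its brighter one.

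The 14 tRNA synthetase probes had a median of -0.01 and 0 calls (1 higher unadjusted). A dim probe of Aars, the alanyl-tRNA synthetase, had 5.82, 5.49, 5.76 and 5.78 on induced arrays, against 5.19, 5.04, 5.28 and 5.11 on uninduced arrays. Every induced array lay above every uninduced one (difference 0.56, replicate block adjusted p = 0.054), though the probe was above background on 4 induced and 2 uninduced arrays, and the brighter Aars probe differed by -0.03. Gars differed by -0.09, Mars1 by 0.04 and Tars by 0.04 at its brighter and -0.01 at its dimmer probe.

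Among ER chaperones, 11 of 19 probes had a higher mean and 8 a lower one, and 0 were called in any of the 3 fits (0 unadjusted with the replicate block). Sil1, which recharges BiP, and Pdia4, a disulfide isomerase, were higher in 4 of 4 pairs by 0.17 and 0.09 (replicate block adjusted p = 0.701 and 0.735), Canx differed by 0.11 and Creld2 by -0.10. The 1 probe lower in 4 of 4 pairs was that of Hsp90b1, a major ER chaperone named after its values were seen, with a difference of -0.074. The 18 probes of ER-associated degradation had a median of 0.02 and 0 calls (1 lower unadjusted). In 4 of 4 pairs 0 of them were higher and 3 lower (7.87% and 7.49% of all tested probes). Among the 3 were the ubiquitin ligase gene Syvn1, lower by 0.11 (adjusted p = 0.628), and Erlec1 at 1 of 2 probes (-0.08, the other 0.04). The 16 probes of stress sensors and transcription factors had a median of -0.03 and 0 calls (2 lower unadjusted). In 4 of 4 pairs 0 of them were higher and 2 lower (7.87% and 7.49% of all tested probes). Among the 16 were the probes of the members Atf4 and Xbp1 and of the sensor Ern1, and no probe of the sensors Atf6 and Eif2ak3. Ern1 differed by -0.23 (adjusted p = 0.641). Mbtps1, a protease that releases Atf6, differed by -0.24 (adjusted p = 0.513, lower in 4 of 4 pairs), -0.12 and 0.07 at its 3 probes. Creb3l1 was also lower in 4 of 4 pairs (-0.17, adjusted p = 0.728). The 24 probes of the translocon and ER exit had a median of -0.0035 and 0 calls (3 higher unadjusted). Of the 24, 4 (16.7%) were higher in 4 of 4 pairs, against 7.87% of all tested probes, and 0 were lower. Sec61b and Spcs3 were higher in this way by 0.12 and 0.18 at 1 of 2 probes each (the others differed by -0.02 and 0.12). Sec61g was so by 0.09, and the remaining probe was of Ssr4 (0.064), named after its values were seen.

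Other stress responses and family relatives were examined in the same way. Ddit4 is also known to answer to hypoxia. The 14 probes of the hypoxia list had a median of -0.04 and 0 calls, with 0 higher and 0 lower in 4 of 4 pairs. Of all tested probes, 7.87% were higher and 7.49% lower in 4 of 4 pairs. The 10 probes of the Nrf2 response had a median of -0.01 and the 8 probes of cytosolic heat shock genes one of -0.02, each with 0 calls. The 8 probes of family relatives had a median of -0.08 and 0 calls, with 1 higher and 3 lower in 4 of 4 pairs. Trib1 was lower in this way by 0.22 and Herpud2 by 0.22 and 0.13 at its 2 probes, while Ddit4l was higher by 0.11. In these 4 lists 0 probes had an unadjusted p under 0.05 with the replicate block.

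**Figure D4:**
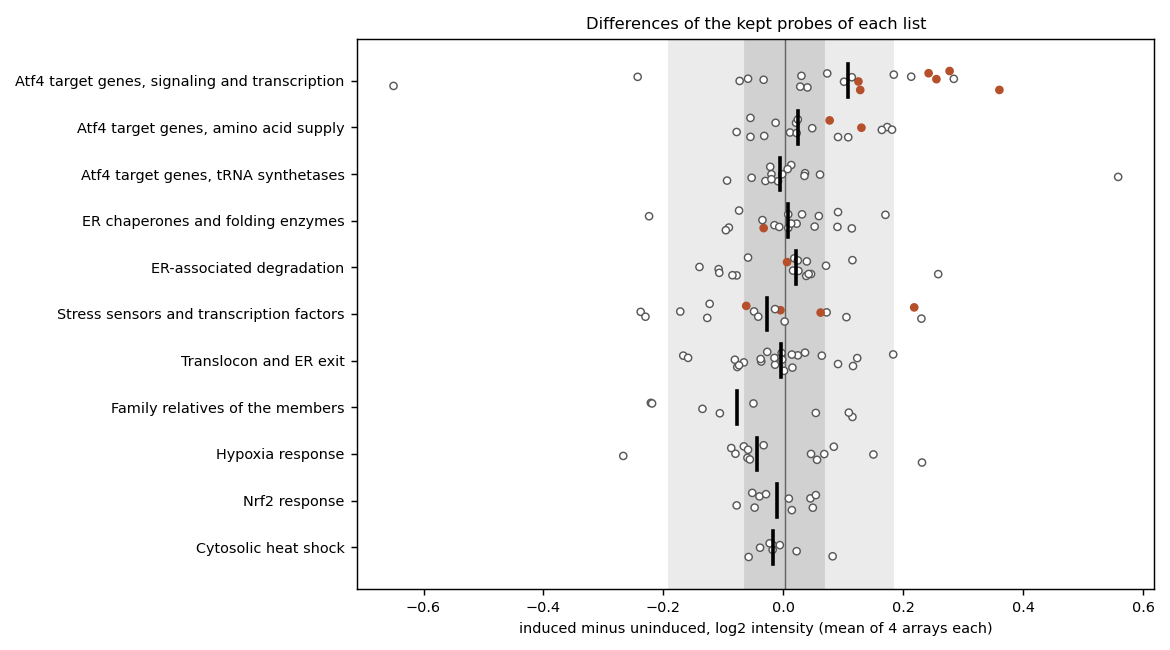
Induced minus uninduced log2 intensity (horizontal axis) of each tested probe of 11 lists, with filled points for probes of the 10 genes, open points for others and a thick tick at the median of each list. The light and dark bands hold the middle 90% and 50% of all 16514 tested probes as single values, with which a median is not to be compared. In the Atf4 signaling list the filled points all lie right of 0 and the open points lie on both sides of it. Some open points lie among the filled ones, such as a Vldlr probe at 0.284 (the other Vldlr probe at 0.101) beside Chac1 at 0.277. The other filled points lie in the lists of amino acid supply, ER chaperones, ER-associated degradation and stress sensors.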

How the data were processed

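Gene expression was measured on 8 Illumina bead arrays, 4 of induced and 4 of uninduced MEP cells. Per the file headers, the deposited table holds, for every probe, a bead intensity and a detection p-value on each array; the submitters' processing notes name GenomeStudio 1.6.0. The authors' deposited series matrix of processed intensities was used as an alternative, with log2 taken after the offset of 16 was added. Normalization used neqc of limma 3.58.1 (R 4.3.3), which corrects the background and then quantile-normalizes (offset 16, with negative control levels derived from detection p-values). Of 46632 probes (11 repeated identifiers averaged), 16514 were tested, namely those detected (p under 0.05) on 4 or more of the 8 arrays; 29976 probes had 1 gene name, 10 several and 16646 none. Groups were compared with limma's moderated test with a variance trend, two-sided, with Benjamini-Hochberg adjustment over all tested probes and a threshold of 0.05, without a block, with the replicate number and with the slide as a block.

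Deviations from the group means correlated at 0.607, 0.616, 0.729 and 0.651 between arrays of equal replicate number. Between unequal numbers the correlations were 0.303 and 0.314 (replicates 1 and 2), 0.186 and 0.38 (replicates 3 and 4, on 1 slide) and otherwise -0.576 to -0.403. The numbers, which come from the labels, were used to pair the arrays. For replicates 1 and 2, on slides of their own, pairing and slide cannot be told apart. The members and the lists (Atf4 targets for signaling, amino acid supply and tRNA synthetases, ER chaperones, ER-associated degradation, sensors, translocon, relatives, hypoxia, Nrf2, heat shock and cell type markers) were chosen with earlier results of these data known. Named were every member probe and, from each other list, probes called in any fit and up to 4 genes with the smallest unadjusted p under the replicate block. Alternatives changed the background correction, offset, scaling, filter, variance trend, block, probes per gene, slides and arrays used. Promoters and their coordinates are from RefSeq (GRCm38.p6).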

Additional observations from a re-analysis of the deposited data

How the results depend on the processing

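No member probe was called under any of the 24 alternatives. Of 328 member values, 305 kept their direction and 23 reversed, 17 of these on leaving out arrays, and 6 probes had no reversal. The count of all called probes was 3, and it became 1 with an offset of 50, 0 with probes detected on all 8 arrays (132 at an unadjusted p under 0.05 in limma), 1 without a variance trend, 14 with the slide block, 54 with the replicate block and 0 on slide 3 alone (380 unadjusted). Leaving out single arrays gave 1 to 3. The replicate block count of 54 became 22 to 40 without 1 replicate number (28, 22, 40 and 25 without replicates 1 to 4). The block changed no member's call. The median of the Atf4 lists, 0.03, ranged from -0.036 to 0.085 on leaving out arrays. It was negative without induced replicate 1 (-0.036) or uninduced replicate 3 (-0.008), both without a block. With the replicate block and without 1 replicate number it was 0.004 to 0.063. The median of the ER chaperones, 0.008, was 0.028 with median scaling, 0.034 on slides 1 and 2 alone and -0.025 to 0.033 on leaving out arrays. The median of all probes was 0.0137 with median scaling, against 0.00279.

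On slide 3 alone the brightest Atf4 probe reversed to -0.04, the second to 0.06, Xbp1 to 0.02 and Herpud1 to -0.01. The second Atf4 probe also reversed with median scaling (0.01) and Hspa5 on slides 1 and 2 alone (0.12). On leaving out arrays, Ddit3 ranged from -0.05 to 0.30 and the brightest Trib3 probe from -0.07 to 0.28, both negative without induced replicate 1. Those limits came from fits without a block that left out 1 array of a pair. With the replicate block and without 1 replicate number, Ddit3 was 0.10 to 0.17 and that Trib3 probe 0.08 to 0.16. The dimmer Asns probe ranged from -0.09 to 0.22, the brightest Atf4 probe from -0.01 to 0.15, the second from -0.09 to 0.11 (0.04 without replicate 1 and 0.03 without replicate 3 under the block), Hspa5 from -0.12 to 0.10 (0.09 without uninduced replicate 4) and Herpud1 from -0.15 to 0.17. The causes were not tested. The number of arrays and the dimness of the third Trib3 and Atf4 probes, Sesn2, Atf3 and the dim Aars probe limit what these data show.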
